A study of Mus musculus with 8 samples.

Results

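Paralogs 9 and 10 of the Hox clusters are the homeobox genes that mark the lower thoracic, lumbar and upper sacral levels of the vertebrate trunk. The group examined here holds the 7 genes Hoxa9, Hoxb9, Hoxc9, Hoxd9, Hoxa10, Hoxc10 and Hoxd10, taken by gene name from the array annotation, and all 7 were among the 28939 genes tested. They were measured in spinal neural tube and in paraxial tissue, each cut out by laser from C57BL/6 mouse embryos at E10.5, the middle of gestation. The 4 groups were mutant neural tube, wild-type neural tube, mutant paraxial tissue and wild-type paraxial tissue, with 2 arrays in each. Both tissues came from the same 2 mutant and 2 wild-type embryos. The mutants carried a conditional (floxed) allele of Geminin with a cre transgene, and their labels read fl/fl; cre/o. The labels used here name neither the promoter that drives the cre, nor the deleted part of the gene, nor the axial level at which the tissues were cut, and the wild-type label adds no allele. Since a group was 2 embryos, every value below is given for each embryo.

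Hox genes lie in 4 clusters (a to d) in an order that matches where along the body they are active: low paralog numbers act near the hindbrain and high numbers near the tail. Genes with the same number in different clusters are paralogs and share much of their function. In the mouse, paralog 9 genes act in the thoracic spinal cord and ribcage, and paralog 10 genes prevent rib formation in the lumbar region and act in hindlimb motor neurons. Geminin, encoded by Gmnn, restrains the replication factor Cdt1 and is also known to bind Hox proteins and Polycomb proteins, which keep Hox genes silent outside their domain.

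Each array had 71.5% to 77.9% of its probes well above background, and the upper quartile of the signal lay between 3164 and 6394. Levels are given as scaled log2 signal, the log2 of the processed red intensity after each array was set to the same 75th percentile, so a difference of 1 is a 2-fold difference. Gmnn read 12.11 and 11.80 in mutant neural tubes, against 12.35 and 12.24 in wild-type neural tubes, and 11.42 and 11.39 in mutant paraxial tissue, against 12.20 and 11.88 in wild-type paraxial tissue. The 2 genotypes did not overlap in either tissue, but the differences of -0.35 ± 0.25 and -0.63 ± 0.25 (log2, SE) did not pass over all genes (limma, adjusted p = 0.921 and 0.996). Whether the Gmnn probe lies in the deleted part was not tested. All 12 neural progenitor markers measured were higher in neural tube than in paraxial tissue in mutants and in wild type, 11 and 2 of them past the threshold. The 10 sclerotome markers were all lower there, 7 of 10 past the threshold in each genotype, so the marker genes went with the tissue labels.

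The array carried 8 probes of 60 bases for the group, 1 per gene and 2 for Hoxa9, and all 8 passed the filter on dim probes. In mm9 coordinates the Hoxa9 probes lay on the minus strand at chr6:52174165-52174224 and chr6:52175595-52175654, with the Hoxa10 probe on the same strand at chr6:52181922-52181981. The Hoxb9 probe lay on the plus strand at chr11:96137748-96137807. On the plus strand of chromosome 15 were the probes of Hoxc10, at chr15:102801857-102801916, and Hoxc9, at chr15:102814735-102814794. Hoxd10 at chr2:74532280-74532339 and Hoxd9 at chr2:74537676-74537735 were also read on the plus strand. No mm9 gene model was used, so the exon of each probe is not given. The probe of Hoxd10, the gene with the widest range of all members, is shown because the largest difference below rests on it:
Hoxd10 probe: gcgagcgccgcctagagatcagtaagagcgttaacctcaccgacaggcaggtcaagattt
Hoxd10 was also the only member with an array not well above background, the neural tube of mutant embryo 1. Each of the other 55 of 56 pairs of a member and an array was well above background, counting the brighter probe of Hoxa9.

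In outline, 6 of the 7 genes were low in both tissues of mutant embryo 1, and Hoxb9 hardly varied. Mutant embryo 2 lay nearer to the wild-type embryos, and its distance from them in neural tube depended on the wild-type embryo. The mean of the 7 members there, each centred over all arrays, was 0.26 in mutant embryo 2. It was 0.46 and 0.93 in wild-type embryos 1 and 2. Against wild-type embryo 1, mutant embryo 2 was lower there for Hoxa9, Hoxd9, Hoxa10 and Hoxd10. It was level for Hoxc9 and Hoxc10 and higher for Hoxb9. The median difference of mutant embryo 2 from wild-type embryo 2 over the 7 members was -0.79 (log2) in neural tube and 0.01 in paraxial tissue. In the values that follow, embryo 1 of a group comes before embryo 2. Among the paralog 9 genes, Hoxa9, which acts with its paralogs in thoracic and lumbar patterning and is also a regulator of blood progenitors, read 11.84 and 14.12 in mutant neural tubes, against 14.58 and 15.10 in wild-type neural tubes. In paraxial tissue Hoxa9 read 13.13 and 14.69 in mutant embryos, against 14.67 and 14.79 in wild-type embryos. The mutant neural tubes were both below the wild-type ones, whereas in paraxial tissue mutant embryo 2 fell between the wild-type embryos. The dimmer Hoxa9 probe ran the same way, with 10.38 and 13.73 in mutant neural tubes, against 13.82 and 14.14 in wild-type neural tubes.

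Hoxc9, which in the mouse spinal cord sets thoracic motor neuron identity and holds back the limb-level program, read 9.79 and 12.05 in mutant neural tubes, against 12.05 and 13.16 in wild-type neural tubes. Its paraxial values were 10.19 and 11.80 in mutant embryos, against 12.20 and 12.56 in wild-type embryos. Every mutant value of Hoxc9 lay below every wild-type value of the same tissue, although mutant embryo 2 and wild-type embryo 1 were almost level in neural tube. Hoxd9, which acts with Hoxa9 in the upper segment of the limb, read 10.96 and 13.82 in mutant neural tubes, against 14.29 and 14.57 in wild-type neural tubes. In paraxial tissue Hoxd9 read 12.76 and 14.30 in mutant embryos, against 14.33 and 14.35 in wild-type embryos. Hoxd9 was thus lower in mutants in both tissues without overlap, but in paraxial tissue mutant embryo 2 was only 0.05 below wild-type embryo 2.

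Hoxb9, which acts with the other paralog 9 genes in the ribcage and mammary gland, was flat by comparison. It read 9.21 and 9.81 in mutant neural tubes, against 9.46 and 9.96 in wild-type neural tubes, and 9.29 and 9.32 in mutant paraxial tissue, against 9.43 and 9.20 in wild-type paraxial tissue. The 2 genotypes overlapped in both tissues. Over the 8 arrays Hoxb9 spanned 0.76 (log2), below the 1.02 of the median gene, whereas the other 6 members spanned 3.26 to 6.35.

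Of the paralog 10 genes, Hoxa10, which specifies lumbar vertebrae without ribs and later the uterus, read 8.02 and 10.96 in mutant neural tubes, against 11.61 and 11.97 in wild-type neural tubes. In paraxial tissue it read 9.92 and 12.01 in mutant embryos, against 11.60 and 11.65 in wild-type embryos. Mutant embryo 1 was the lowest in each tissue, and mutant embryo 2 was lower than wild type in neural tube but higher than wild type in paraxial tissue. Hoxc10, which acts in lumbar motor neurons and in the hindlimb, read 11.04 and 13.69 in mutant neural tubes, against 13.68 and 14.48 in wild-type neural tubes. Its paraxial values were 12.12 and 14.10 in mutant embryos, against 14.08 and 14.09 in wild-type embryos. Mutant embryo 2 was level with wild-type embryo 1 in neural tube and with both wild-type embryos in paraxial tissue, so the genotypes overlapped. Hoxd10, which guides hindlimb motor innervation together with its paralogs, read 6.23 and 11.83 in mutant neural tubes, against 12.00 and 11.74 in wild-type neural tubes. In paraxial tissue Hoxd10 read 9.97 and 12.58 in mutant embryos, against 12.12 and 12.53 in wild-type embryos. Only mutant embryo 1 stood apart, at a processed signal of 69.6 in neural tube that was not well above background, and the genotypes overlapped.

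**Figure D1:**
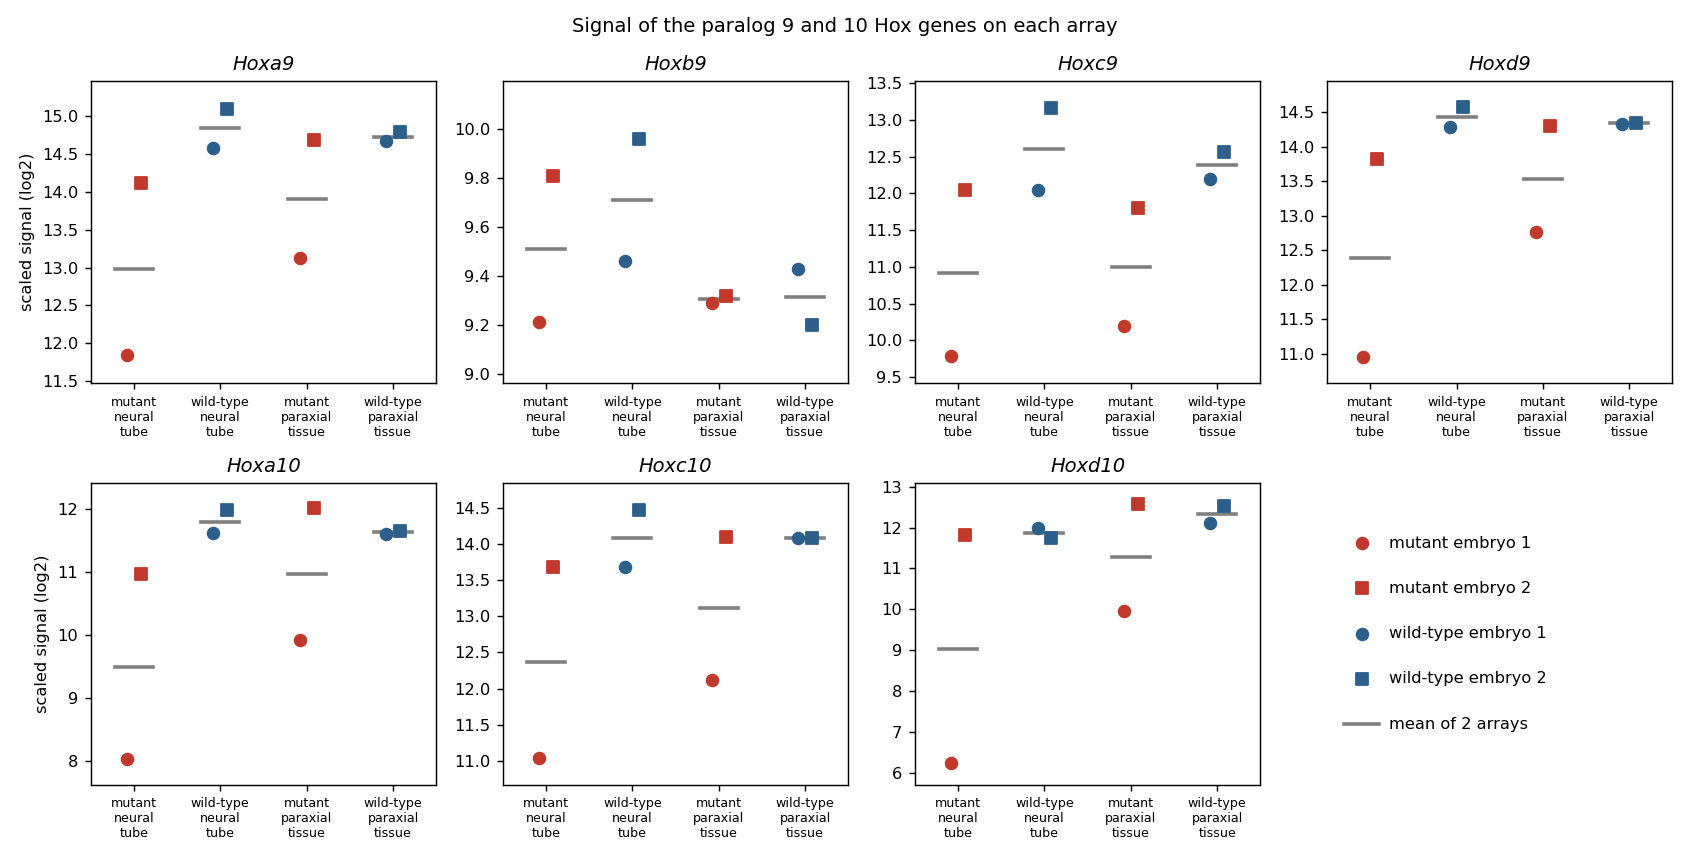
Scaled log2 signal of the 7 genes on each of the 8 arrays; each panel is 1 gene with its own axis, circles are embryo 1 and squares embryo 2, red is mutant and blue wild type, and grey bars are means of 2 arrays. In every panel but that of Hoxb9 the red circles (mutant embryo 1) are the lowest point of their tissue, and Hoxd10 reaches down to 6.23.

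The genotype comparison set embryos with the conditional Geminin genotype against wild-type embryos in each tissue. In neural tube all 7 members were lower in mutants, with differences of -0.20 to -2.84 (log2) and a median of -1.86, against -0.01 over all genes. Hoxa9 was lower by 3.62-fold (log2 difference -1.86 ± 0.67, SE, 2 embryos a genotype), Hoxa10 by 4.91-fold (-2.30 ± 0.83) and Hoxd9 by 4.11-fold (-2.04 ± 0.81). Hoxd10 differed by -2.84 with the largest error, 1.56, and its mutant embryo 1 was not well above background. No member passed over all genes (limma, adjusted p = 0.952 for Hoxb9 and 0.921 for each of the other 6). The background was the same, since 0% of the 28939 genes passed. At an unadjusted p under 0.05 there were 3 of 7 members (Hoxa9, Hoxd9 and Hoxa10) and 1050 genes in all. Their unadjusted limma p-values, from the fit across all genes, were 0.0276 for Hoxa9, 0.0398 for Hoxd9 and 0.0285 for Hoxa10. The genotypes did not overlap, with mutants lower, for Hoxa9, Hoxc9, Hoxd9 and Hoxa10, that is 4 of 7, against 15.4% of all genes. In these arrays of bulk captured tissue, fewer cells that transcribe a gene and less RNA per cell cannot be told apart. Replicate labels name separate embryos, and the p-values rest on a spread pooled over the 4 groups. The 2 embryos of a genotype also lay in different slide rows, so in that spread embryo and row cannot be told apart.

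In paraxial tissue the 7 members were again all lower in mutants, by -0.01 to -1.39 (log2) with a median of -0.83, against 0.03 over all genes. Hoxc9 had the largest difference, -1.39 ± 0.72 (SE), a level 2.62-fold lower in mutants (limma, adjusted p = 0.996). Hoxd10 followed with -1.05 ± 1.56 and Hoxc10 with -0.97 ± 0.80. No member and 0% of all genes passed, and at an unadjusted p under 0.05 there were 0 members and 971 genes. Mutants were lower without overlap for Hoxc9 and Hoxd9, 2 of 7, against 14.7% of all genes. Averaged over both tissues, the differences ran from -0.10 for Hoxb9 to -1.94 for Hoxd10, and none passed (limma, adjusted p = 0.95 to 0.987, 0% of all genes). Hoxc9 and Hoxd9 were the 2 of 7 members lower without overlap in both tissues, against 5.39% of all genes.

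**Figure D2:**
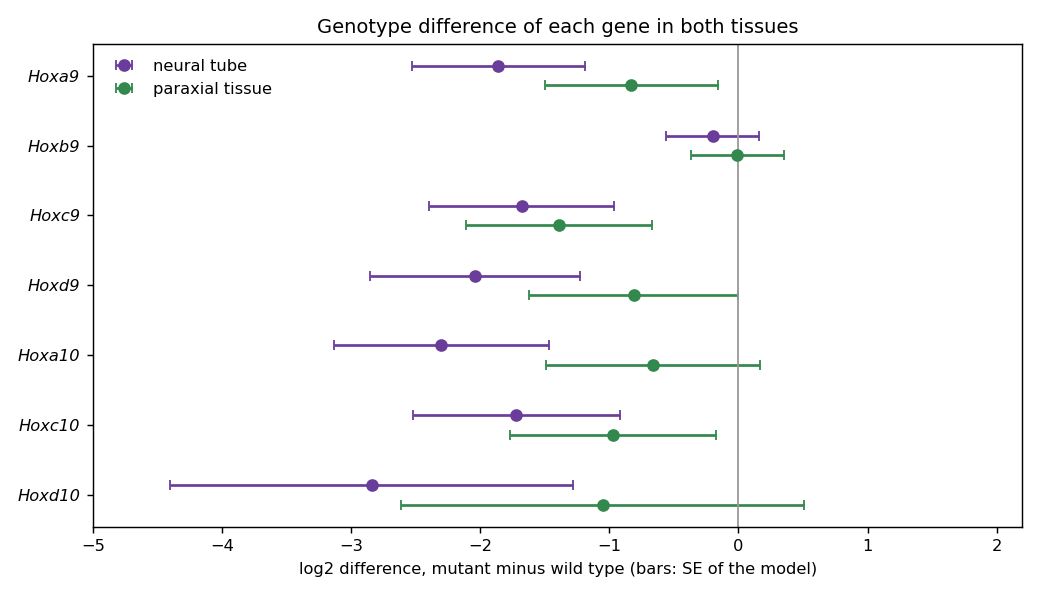
Difference in scaled log2 signal, mutant minus wild type, for each gene in neural tube (purple) and paraxial tissue (green); points are estimates of the limma model and bars their standard errors. All 14 points lie at or below 0, from -2.84 for Hoxd10 in neural tube to -0.01 for Hoxb9 in paraxial tissue, and no difference passed over all genes.

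Most of the genotype difference came with mutant embryo 1. Within the 2 slide rows, which each held 1 mutant and 1 wild-type embryo, mutant embryo 1 differed from wild-type embryo 1 in neural tube by -0.26 to -5.77 (log2), with a median of -2.74 over the 7 members. Mutant embryo 2 differed from wild-type embryo 2 by -1.11 to 0.09, with a median of -0.79. In paraxial tissue the first row gave -0.13 to -2.15 with a median of -1.68, and the second row -0.77 to 0.36 with a median of 0.01. Leaving out mutant embryo 1 altogether brought the members' median to -0.55 in neural tube, where 6 of 7 stayed lower, and to 0.01 in paraxial tissue, where 3 of 7 stayed lower. In that fit Hoxa10 read 0.38, Hoxd10 0.25, Hoxc10 0.02 and Hoxb9 0.01 (log2, mutant minus wild type in paraxial tissue). Leaving out mutant embryo 2 instead gave medians of -3.04 and -1.70.

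Set directly against each other, the 2 mutant embryos lay far apart for 6 members. In neural tube the difference of mutant embryo 1 minus mutant embryo 2 was -2.26 to -2.95 (log2) for Hoxa9, Hoxc9, Hoxd9, Hoxa10 and Hoxc10. Hoxd10 was 31.4-fold lower in embryo 1 when embryo 2 was set against a floor of 6.86. That floor is the lowest level of a probe well above background on the array of embryo 1, where Hoxd10 itself read 6.23. It is not a strict bound, since each spot is flagged on its own. At least a 4-fold lower level in embryo 1 was found for 6 of 7 members, against 1.27% of all genes, with 1 array on each side and hence no test. In paraxial tissue the differences ran from -0.02 for Hoxb9 to -2.61 for Hoxd10, and 2 of 7 (Hoxa10 and Hoxd10) were at least 4-fold lower, against 0.902% of all genes. The 6 members other than Hoxb9 were at least 2-fold lower in embryo 1 in both tissues, as were 1.89% of all genes. For the same 6, the neural tube of mutant embryo 1 was the lowest and its paraxial tissue the second lowest of the 8 arrays, an order found in 6.18% of all genes. The 2 wild-type embryos lay closer together, at -1.11 to 0.26 in neural tube and -0.41 to 0.23 in paraxial tissue (embryo 1 minus embryo 2), and 0 of 7 members reached 4-fold, against 0.339% and 0.294% of all genes.

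The tissue comparison asks whether neural tube and paraxial tissue of 1 embryo carried the genes at different levels. In mutants 6 of 7 members were lower in neural tube, with a median difference of -0.93 (log2), against -0.03 over all genes. Hoxa10 differed by -1.47 ± 0.52 and Hoxd10 by -2.24 ± 0.98 (SE), and none of the 7 passed (limma, adjusted p = 0.175 for Hoxa10, the smallest, to 0.961), against 5.84% of all genes. Within an embryo, 5 of 7 members (Hoxa9, Hoxd9, Hoxa10, Hoxc10 and Hoxd10) were lower in neural tube than in paraxial tissue in both mutant embryos, against 39% of all genes. In both wild-type embryos this held for 1 of 7, Hoxd10, against 27.9% of all genes. Taken as groups, the 2 mutant tissues overlapped in every member, whereas 16.6% of all genes were higher and 19.6% lower in mutant neural tube without overlap. The wild-type tissues were closer, with differences of -0.45 to 0.40, a median of 0.10 and no member called (limma, adjusted p = 0.42 to 0.999), against 2.45% of all genes. Of the wild-type members, Hoxb9 was higher in neural tube without overlap and Hoxd10 lower, while 18.3% of all genes were higher and 16.9% lower without overlap. The genotype by tissue interaction was negative for all 7, from -0.19 to -1.79 with a median of -1.03, and 0 of 7 members and 0% of all genes passed (limma, adjusted p = 0.956 to 0.987). At an unadjusted p under 0.05 the interaction held 0 members and 1495 genes. The interaction medians with a mutant neural tube array left out were 0.07 without embryo 1 and -1.77 without embryo 2. With both tissues of an embryo left out, the median was -0.41 without mutant embryo 1, with 5 of 7 negative, and -1.39 without mutant embryo 2. The mutant tissue difference itself had a median of -0.47 without mutant embryo 1, with 5 of 7 lower in neural tube.

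Across the 8 arrays 6 members ran closely together. Each of the 6 correlated with the mean of the other members at r = 0.92 to 0.99, and Hoxb9 at 0.44 (Pearson, 8 arrays). The 15 pairs without Hoxb9 had r of 0.83 to 0.99. These values are descriptions, since the arrays share embryos, and the low arrays of mutant embryo 1 set most of the range. By this likeness, the genes nearest to the mean of the members were LOC630474 (r = 0.990), an interval on chromosome 14 (0.986), ENSMUST00000098383 (0.986), Ifnab (0.986), a transcribed interval in the Hoxb cluster (0.985), Atp2b4 (0.983), an interval on chromosome 8 (0.982) and LOC100046730 (0.981), over 8 arrays each. Of these, LOC630474 read 4.93 and 8.20 in mutant neural tubes, against 7.95 and 8.74 in wild-type neural tubes. Its 4.93 lies below the floor of 6.86 on that array, so the size of its difference is limited by the signal floor. Atp2b4, a plasma membrane calcium pump, read 13.58 and 14.64, against 14.89 and 14.90.

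The Hoxb interval is at chr11:96112907-96125798 of mm9, and its end lies 11949 bases from the Hoxb9 probe. Its brightest probe read 9.50 and 12.01 in mutant neural tubes, against 11.80 and 12.14 in wild-type neural tubes, and 10.37 and 12.15 in mutant paraxial tissue, against 11.93 and 12.15 in wild-type paraxial tissue. The interval was low in mutant embryo 1 as 6 members were, although Hoxb9 next to it was not. Within 20000 bases of the member probes there were 10 probes that did not carry the name of a Hox gene. Of these, 8 were at least 2-fold lower in mutant embryo 1 than in mutant embryo 2 in both tissues, against 1.89% of all genes. That share counts genes by their brightest probe, and the share over all probes was not counted. These 8 are not independent, since 4 of them lie in the 1 Hoxb region, the 3 probes of the interval and a Gm53 probe with the same start as 1 of these. One of the 8 was Hoxa11os, the antisense transcript of Hoxa11, with 10.27 and 13.19 in mutant neural tubes, against 12.93 and 14.24 in wild-type neural tubes. Another, 2700086A05Rik in the Hoxa cluster, read 5.92 and 9.63, against 9.39 and 10.35. Its 5.92 lies below the floor of 6.86 on the neural tube array of mutant embryo 1. So does the 4.78 of Hoxd3os1, also among the 8, and the size of both differences is limited by that floor. Gm4200, between the Hoxc9 and Hoxc10 probes, went the other way, with 13.01 and 12.17 in mutant neural tubes, against 13.71 and 12.40 in wild-type neural tubes. These neighbours were chosen by position and named after their values were seen.

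Along the clusters the embryo difference varied between paralog numbers. The median difference of mutant embryo 1 minus mutant embryo 2 in neural tube was 0.59 for paralog 2, 0.30 for paralog 4, -0.74 for paralog 5, -1.60 for paralog 6, -1.34 for paralog 7, -2.53 for paralog 8, -2.27 for paralog 9, -2.95 for paralog 10 and -4.43 for paralog 11 (log2, 2 to 4 genes each). Beyond these it was -1.09 for the 1 gene of paralog 12 and -0.72 for paralog 13. In paraxial tissue it was 0.93 for paralog 2, 0.04 for paralog 4, -1.40 for paralog 6, -1.24 for paralog 7, -1.05 for paralog 8, -1.54 for paralog 9, -2.09 for paralog 10 and -1.97 for paralog 11, with 0.18 for paralog 12 and -0.20 for paralog 13. The medians of paralogs 2 to 4 were thus above 0 and those of paralogs 5 to 11 below 0 in both tissues. The paralog 11 median in neural tube was the value of Hoxa11, which read 4.83 in mutant embryo 1. Hoxc11 read 4.81 on that array. Both lay below its floor of 6.86, so the size of the paralog 11 median there is limited by the signal floor. Hoxb8 read 15.15 and 14.99 in mutant neural tubes, against 14.99 and 14.35 in wild-type neural tubes, and mutant embryo 1 was the highest of the 4. Between the wild-type embryos the medians of paralogs 9 and 10 were -0.51 and -0.36 in neural tube and -0.07 and -0.05 in paraxial tissue, while paralog 11 gave -1.12 and -2.01. The wild-type medians of paralogs 6, 7 and 8 were -0.72, -0.94 and -1.03 in neural tube and -0.57, -0.42 and -0.90 in paraxial tissue, so embryo 1 was the lower one there too.

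**Figure D3:**
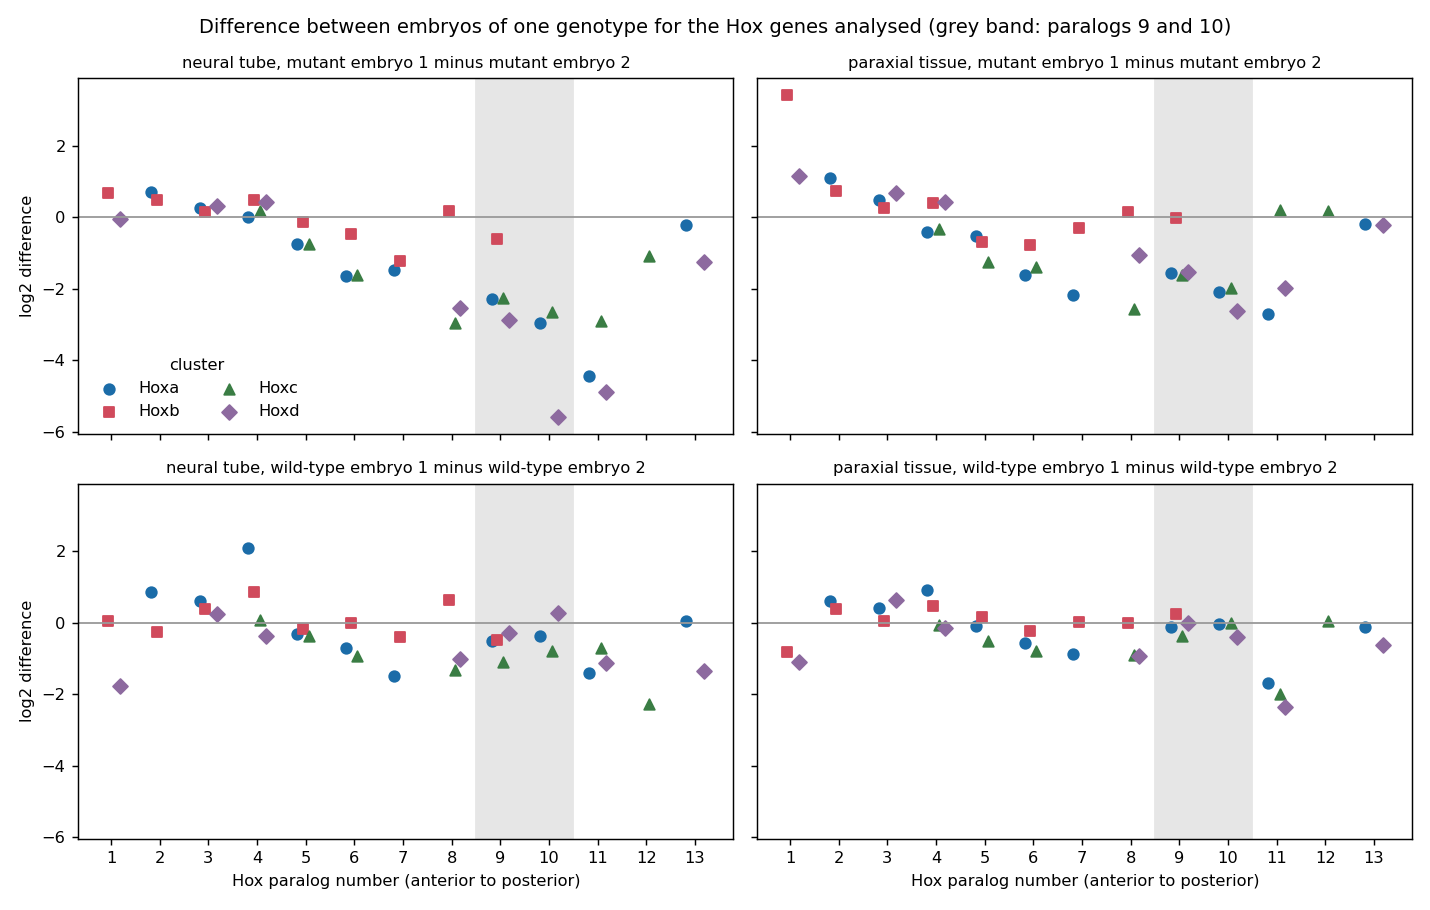
Difference in scaled log2 signal between embryo 1 and embryo 2 of the mutants (top) and the wild type (bottom) in neural tube (left) and paraxial tissue (right), for the Hox genes analysed, by paralog number, with 1 symbol per cluster; each point is 1 array minus another and has no error bar. In the mutants the median is above 0 for paralogs 2 to 4 and below 0 for paralogs 5 to 11 in both tissues. The change from 1 paralog to the next is uneven. The points of paralogs 12 and 13 lie nearer 0 than most points of paralogs 9 to 11. Hoxd10 is at -5.60 in neural tube, from an embryo 1 signal not well above background. Hoxa11 at -4.43 and Hoxc11 at -2.91 in neural tube also rest on embryo 1 signals below the floor of that array. Hoxb8 and Hoxb9 stay closest to 0 among paralogs 8 and 9, at 0.17 and -0.60 in neural tube.

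None of the neighbouring paralogs passed in the genotype comparison either. The 14 genes analysed of paralogs 1 to 5 had a median of 0.16 in neural tube and 0.04 in paraxial tissue (log2, mutant minus wild type). The 8 genes of paralogs 6 to 8 had -0.69 and -0.58, with 7 of 8 lower in each tissue. The 6 measured genes of paralogs 11 to 13, of 9 listed, had -1.80 and -0.30. Among them Hoxc11, which also acts at hindlimb level, read 4.81 and 7.72 in mutant neural tubes, against 8.61 and 9.31 in wild-type neural tubes, and its difference of -2.69 ± 1.19 did not pass (limma, adjusted p = 0.921). In paraxial tissue Hoxc11 read 5.06 and 4.86 in mutant embryos, against 7.50 and 9.51 in wild-type embryos. Both mutant values there were low and not well above background, as was that of mutant embryo 1 in neural tube. The measured means there were 4.96 in mutants and 8.50 in wild type, and the difference of -3.55 ± 1.19 did not pass (limma, adjusted p = 0.996). Set against a floor, Hoxc11 was 2.8-fold lower in mutant paraxial tissue, a value that was not tested. The floor takes on each mutant array the lowest level of a probe well above background, and it is not a strict bound. For Hoxd12, Hoxb13 and Hoxc13 no probe passed the filter on dim probes.

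Genes that act with or upstream of the group showed no call between genotypes either. The 9 cofactors of the Pbx, Meis and Pknox families, which bind DNA beside Hox proteins, had medians of 0.08 in neural tube and 0.03 in paraxial tissue. Of the 22 measured Polycomb and Trithorax genes, 12 were higher and 10 lower in mutant neural tube, with a median of 0.03, and 8 higher and 14 lower in mutant paraxial tissue, with a median of -0.07. The 18 measured posterior axial regulators (Cdx, Gdf11, Wnt and related genes) had medians of 0.08 and 0.15. Lin28a in that list, an RNA-binding protein of early progenitors, was higher in mutants by 1.17 ± 0.36 in neural tube and 1.66 ± 0.36 in paraxial tissue (limma, adjusted p = 0.921 and 0.996), and Nr6a1, a nuclear receptor that acts on trunk length, by 1.55 ± 0.50 in neural tube (adjusted p = 0.921). The 17 spinal motor column genes include targets of Hoxc9 and the paralog 10 genes. Of these 17, 12 were lower in mutant neural tube with a median of -0.33, and 13 in mutant paraxial tissue with a median of -0.64. Mnx1, a motor neuron determinant, differed by -2.73 ± 0.92 in neural tube (limma, adjusted p = 0.921). Aldh1a2 in the same list went the other way, by 0.97 ± 0.44 in neural tube (adjusted p = 0.921).

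Some marker lists of other cells differed between embryos or genotypes. The mean of the 12 neuron markers, each centred over the 8 arrays, was -0.24 and 0.92 in mutant neural tubes, against 1.07 and 0.93 in wild-type neural tubes. The paraxial means were -1.32 and -1.15 for mutants, against 0.62 and -0.82 for wild type. The 12 neural progenitor markers were even in neural tube, at 1.12 and 1.04 in mutant embryos, against 0.91 and 1.00 in wild-type embryos. The 11 measured surface ectoderm markers averaged 0.09 and -0.16 in mutant neural tubes, against -0.63 and -0.55 in wild-type neural tubes, and 1.21 and 0.70 in mutant paraxial tissue, against -0.51 and -0.15 in wild-type paraxial tissue. In paraxial tissue 4 further lists had mean levels that did not overlap between the genotypes. All 8 erythroid markers measured were higher in mutants there, with means of 0.69 and 0.64 in mutant embryos, against -0.16 and -0.04 in wild-type embryos. All 10 endothelial markers were also higher, at 0.79 and 0.69 in mutant embryos, against -0.03 and 0.25 in wild-type embryos. Of the 6 measured hindlimb and lateral plate markers 5 were higher, with means of 0.89 and 1.99 in mutant embryos, against -0.33 and 0.76 in wild-type embryos. Of the 11 measured dermomyotome and myotome markers 10 were lower, with means of 0.51 and 1.09 in mutant embryos, against 1.33 and 2.02 in wild-type embryos. In neural tube the hindlimb and lateral plate means did not overlap either, with 4 of 6 markers higher in mutants. Those means were -0.60 and -0.35 in mutant embryos, against -1.58 and -0.78 in wild-type embryos. The 10 tail bud markers stayed between 0.06 and 0.48 in the 4 neural tubes. The neuron markers were low in the neural tube of mutant embryo 1, the array on which the 6 members were lowest, and the surface ectoderm markers were high in both mutant embryos. No marker passed between genotypes over all genes (limma, 0 called in each list and tissue, against 0% of all genes). The part of these cells in the result was not tested.

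**Figure D4:**
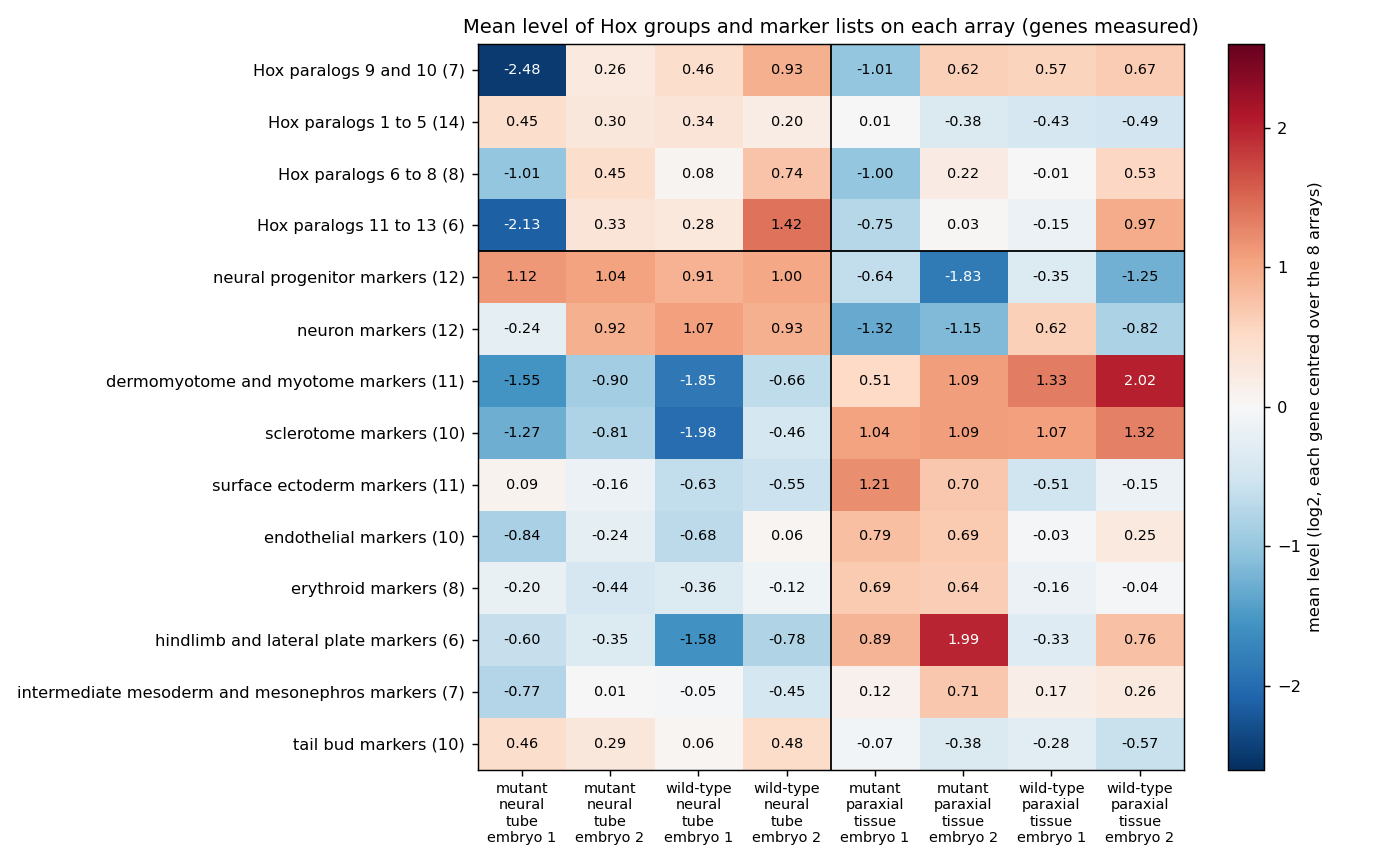
Mean level of Hox groups (upper 4 rows) and marker lists (lower rows) on each array, as log2 signal with each gene centred over the 8 arrays; the colour runs from low (blue) to high (red) and the number of measured genes stands after each name. The paralog 9 and 10 row is lowest for the neural tube of mutant embryo 1 (-2.48) and next lowest for its paraxial tissue (-1.01), and lies between 0.26 and 0.93 on the other 6 arrays.

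The sequences before the start sites are shown because 6 members moved together over the arrays. RefSeq promoters (GRCm38.p6) were matched for 4 of the 7 members, and the 250 bases before the start were searched on both strands for TTTAT, a core of sites bound by caudal and posterior Hox proteins, and for CCAAT, the box bound by NF-Y. In capitals are the matches:
Hoxa9, chr6:52227371-52227620, minus strand: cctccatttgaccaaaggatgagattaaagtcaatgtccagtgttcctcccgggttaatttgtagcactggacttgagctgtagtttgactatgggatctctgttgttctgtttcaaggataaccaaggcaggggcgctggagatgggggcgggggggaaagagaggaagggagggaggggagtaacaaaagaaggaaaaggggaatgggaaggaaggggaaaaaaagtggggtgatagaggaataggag
Hoxd9, chr2:74697513-74697762, plus strand: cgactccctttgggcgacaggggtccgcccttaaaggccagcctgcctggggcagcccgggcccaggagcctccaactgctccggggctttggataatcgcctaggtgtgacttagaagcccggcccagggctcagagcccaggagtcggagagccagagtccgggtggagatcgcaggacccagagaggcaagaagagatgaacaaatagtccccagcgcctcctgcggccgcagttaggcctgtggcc
Hoxa10, chr6:52234940-52235189, minus strand: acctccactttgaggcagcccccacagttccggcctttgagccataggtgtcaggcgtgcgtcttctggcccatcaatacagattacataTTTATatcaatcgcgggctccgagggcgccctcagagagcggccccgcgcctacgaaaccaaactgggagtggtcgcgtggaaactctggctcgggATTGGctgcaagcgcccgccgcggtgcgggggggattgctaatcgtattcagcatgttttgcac
Hoxd10, chr2:74691641-74691890, plus strand: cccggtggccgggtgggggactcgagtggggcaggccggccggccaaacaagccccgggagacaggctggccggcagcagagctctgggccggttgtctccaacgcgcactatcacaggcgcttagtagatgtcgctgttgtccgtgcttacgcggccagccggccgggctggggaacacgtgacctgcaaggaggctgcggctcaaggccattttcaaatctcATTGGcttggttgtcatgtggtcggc
The Hoxa10 window, the second of 2 start sites listed, held TTTAT 160 bases and ATTGG, the reverse strand of CCAAT, 64 bases before the start. The window of the first Hoxa10 start site, not shown, held TTTAT 242 bases before the start and no CCAAT. The Hoxd10 window held ATTGG 26 bases before the start and no TTTAT. Neither motif was in the Hoxa9 and Hoxd9 windows. Among 32851 RefSeq promoters of the same length, TTTAT was in 37.3% and CCAAT in 33.8%, so the 4 genes shared neither motif, and both are common in promoters. A match is only a run of letters, and binding was not measured.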

How the data were processed

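The 8 arrays were 1-colour Agilent arrays read in the red channel (Cy5), all on 1 slide, with embryo 1 of each group in slide row 1 and embryo 2 in row 2. Per the file headers, the deposited intensity is the linear processed signal from Agilent Feature Extraction 11.0.1.1, with 1 unpooled file per array, and the probe positions are on mm9. The authors' value table of intensity values differed from these by at most 0.497% and served as an alternative. Per the labels' protocols, RNA came from laser-captured tissue and cDNA was labelled chemically.

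From the 62976 spots of an array, 3671 control spots and outlier flags were left out, and 0 spots were saturated. Log2 of the processed signal was scaled to each array's 75th percentile. Of 55681 probes, 17 had no usable spot on an array. A probe was kept if in any group its 2 arrays were both well above background, which left 42752. Each of 28939 genes was read from its brightest kept probe, named by RefSeq accession (26045 probes), by symbol (3200) or as in the files. With limma 3.58.1 in R 4.3.3, 4 group means were estimated from the 8 arrays together. The embryo entered as a random block, for which duplicateCorrelation gave 0.603, and eBayes added 2.93 prior to 4 residual degrees of freedom. P-values were adjusted over all genes by Benjamini and Hochberg at 0.05. The code was tested on simulated data. The number of arrays limits the precision. The labels give the embryo that 2 tissues share, and its tissues deviated from their groups in the same direction (r across genes 0.61 in mutants and 0.56 in wild type).

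The 7 members, the gene lists and the alternatives were chosen with earlier results of these data known. Named genes were the members, Gmnn, the 8 genes most like the members' mean, and in each list up to 4 genes that passed or otherwise the 2 with the smallest p. Hoxc11, Lin28a, Nr6a1, Mnx1 and Aldh1a2 were named by this rule in a genotype comparison and Hoxb8 in a tissue comparison. Alternatives were other scalings (quantile, median, cyclic loess), normexp (offset 50), other filters and probe rules, the authors' table, other variance and block models, and leaving out arrays or embryos. A listed gene is not reported here.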

Additional observations from a re-analysis of the deposited data

Results flagged for a closer look

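Hoxa10 was singled out because its tissue difference ran in opposite directions in the 2 genotypes. Neural tube minus paraxial tissue was -1.90 and -1.04 (log2) in mutant embryos 1 and 2, against 0.01 and 0.32 in wild-type embryos 1 and 2. The interaction was -1.64 ± 0.74 (SE) and did not pass over all genes (limma, adjusted p = 0.956, unadjusted p = 0.0637). It ranged from -2.58 to -0.70 when an array or embryo was left out in turn. The opposite signs rest on wild-type embryo 1, which was 0.01 from 0. In Hoxa9, Hoxd9 and Hoxc10 both mutant embryos also lay below both wild-type embryos, narrowly so in Hoxc10, but wild-type embryo 1 was below 0. The share of all genes with such an order was not counted, so nothing is concluded from it. Hoxa9 gave -1.29 and -0.57 in mutant embryos, against -0.10 and 0.30 in wild-type embryos. Hoxd9 gave -1.81 and -0.47 in mutant embryos, against -0.05 and 0.22 in wild-type embryos, and Hoxc10 gave -1.07 and -0.42 in mutant embryos, against -0.39 and 0.39 in wild-type embryos.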

How the results depend on the processing

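No member was called in any of the 147 combinations of 1 of the 6 comparisons with an alternative setting. Of 1023 refitted member differences, 970 kept their direction and 53 changed sign, none of them called, and the lowest adjusted p was 0.079 (limma). The 53 were mostly Hoxb9 or values near 0. Hoxb9 in paraxial tissue (main value -0.01, mutant minus wild type) was 0.10 with quantile normalization, 0.09 with median scaling, 0.06 with cyclic loess and 0.14 with normexp. Its mean over both tissues (main value -0.10) was 0.01 with quantile normalization and 0.04 with normexp. Hoxc10 between the wild-type tissues was 0.03 with quantile normalization and 0.04 with cyclic loess. Leaving out each array or embryo in turn turned these signs as well (log2). For mutant minus wild type in neural tube, the ranges were Hoxb9 from -0.53 to 0.13. For mutant minus wild type in paraxial tissue, the ranges were Hoxb9 from -0.32 to 0.31, Hoxa10 from -1.70 to 0.38, Hoxc10 from -1.97 to 0.02 and Hoxd10 from -2.35 to 0.25. For the mean of both tissues, the ranges were Hoxb9 from -0.27 to 0.06 and Hoxd10 from -4.00 to 0.11. For the interaction, the ranges were Hoxb9 from -0.55 to 0.17, Hoxc9 from -1.01 to 0.42, Hoxc10 from -1.56 to 0.07 and Hoxd10 from -3.93 to 0.35. For neural tube minus paraxial tissue in mutants, the ranges were Hoxb9 from -0.09 to 0.50, Hoxc9 from -0.79 to 0.65 and Hoxc10 from -1.56 to 0.07. For neural tube minus paraxial tissue in wild type, the ranges were Hoxa9 from -0.11 to 0.32, Hoxc9 from -0.19 to 0.64, Hoxd9 from -0.05 to 0.22 and Hoxc10 from -0.40 to 0.39. Leaving out a whole embryo turned the sign of Hoxb9 to 0.05 in neural tube (without wild-type embryo 2) and to 0.05 in the mean of both tissues (without mutant embryo 1), and without wild-type embryo 2 Hoxc9 was 0.08 in the interaction and -0.15 between the wild-type tissues. With a whole embryo left out, the block correlation was taken from all 8 arrays, and a lone array was assumed to vary like the other groups. Without the replicate block, with the embryo as a fixed block (tissue comparisons and interaction only), and with the slide row as a fixed block, the number of members called was 0 each time. Numbers were not taken to pair a mutant with a wild-type embryo (r of deviations 0.29 in each tissue, 2 pairs). Counts over all genes moved more: between the mutant tissues 1689 genes were called, against 0 without the replicate block, 211 with the embryo as a fixed block, 1025 with the slide row as a block and 610 with no filter on dim probes, and 0 to 3199 with an array left out (0 without the neural tube and 10 without the paraxial tissue of mutant embryo 2, 23 without the neural tube and 229 without the paraxial tissue of mutant embryo 1, 3123 without either wild-type neural tube and 3199 without either wild-type paraxial tissue). With a whole embryo left out there were 32 without mutant embryo 1, 0 without mutant embryo 2 and 1097 without either wild-type embryo. Between the wild-type tissues 710 were called, against 4, 51, 414 and 362 under those settings, 1491 with normexp, 1089 with trend and robust moderation, 260 to 2682 with an array left out (2682 without the neural tube and 1981 without the paraxial tissue of wild-type embryo 1, 313 and 260 without those of wild-type embryo 2, 315 without either mutant neural tube and 358 without either mutant paraxial tissue), and 31 to 181 with an embryo left out (31 without wild-type embryo 2, 90 without wild-type embryo 1, 181 without either mutant embryo). Every result rests on 2 embryos a genotype, and Hoxd10 in the neural tube of mutant embryo 1 was at background, so its difference there is limited by the signal floor.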
